A study of Mus musculus with 16 samples.

Results

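The libraries described here are the 4 progesterone and 4 oil libraries of uteri that overexpress progesterone receptor isoform A, 8 of the 16 libraries of an RNA-seq study of mouse uterus. They were chosen by their labels and compared over every feature whose mean over the 16 columns was at least 1 FPKM, 15408 of the 31274 features in the deposited table. FPKM (fragments per kilobase of transcript, scaled to library size) is a level corrected for transcript length and sequencing depth. The mice were of the genotype PgrcrePgrALsL/+, called PRA here. They carried Pgrcre, a Cre recombinase driven by the progesterone receptor gene, and 1 copy of an allele from which Cre releases a transgene for isoform A. Their ovaries had been removed 2 weeks before, and the uterus was taken whole 6 h after oil or progesterone (P4). The labels name 4 bioreplicates in each group. The other strain, PgrcrePgrBLsL/+ (called PRB), carried the same driver and a transgene for isoform B, went through the same surgery and treatments with 4 bioreplicates in each group, and is used here to share the estimate of spread and to test where the responses differed.

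Some limits of the model come from the labels. Cre acts wherever Pgr is or was expressed, which in the uterus takes in epithelium, stroma and muscle, and RNA of the whole organ mixes these cells. Both strains carry the driver and a transgene, and no strain without one was used here. The labelled positions run from 1 to 4 for the oil libraries and from 5 to 8 for the P4 libraries, so position and treatment cannot be told apart. The treatment protocol field speaks of mated females on day 4 of pregnancy, whereas the grouping here follows the titles, characteristics and overall design. The dose of progesterone is not given in the sources used here.

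As background, the progesterone receptor is a hormone-activated transcription factor. Without hormone it is held in a complex with HSP90 and co-chaperones, and with hormone it binds palindromic response elements that it shares with the glucocorticoid, mineralocorticoid and androgen receptors. In the uterus it acts in epithelium and stroma at once: epithelial Indian hedgehog signals to the stroma, and stromal factors such as HAND2 restrain the growth of the epithelium that oestrogen drives, which prepares the organ for the embryo. Isoforms A and B come from 1 gene, and B has a longer N-terminal end.

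Total FPKM lay between 499748 and 528785 in the oil libraries and between 572846 and 594092 in the P4 libraries. The spacing of the lowest values implied 67.1 M to 73.8 M fragments per PRA library, which is 120.2 to 132 fragments for each FPKM of a transcript 2 kb long. Correlations of log2 values were 0.950 to 0.975 within a group and 0.864 to 0.908 between the groups. The first principal component, with 65.9% of the variance, separated P4 from oil. The second, with 9.67%, set oil replicates 1 and 3 (-19.4 and -23.03) apart from oil replicates 2 and 4 (20.4 and 30.8), and that spread returns in several genes below. In 210 features a listed 0 stood beside a value over 5 among the PRA libraries, so a listed 0 need not mean absent RNA.

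Pgr itself, which the reads of the transgene can reach, measured 66.7, 67.3, 56.8 and 68.9 FPKM in the 4 oil libraries and 72.1, 76.4, 73.2 and 73.7 FPKM in the 4 P4 libraries. The groups did not overlap, but the log2 change of 0.19 (SE 0.12) was not called by limma (adjusted p = 0.17), with an adjusted p of 0.0089 without PRB P4 replicate 3, a library that sets part of the spread, and a change of -0.05 under quantile normalization. Isoforms A and B and the transgene were not separated in the table. Markers of epithelium, stroma and smooth muscle were all present: the 8 epithelial markers summed to 1026 to 1192 FPKM in oil and 969 to 1274 FPKM in P4, the 7 stromal markers to 958 to 1057 FPKM and 784 to 974 FPKM, and the 6 smooth muscle markers to 855 to 1136 FPKM and 912 to 1268 FPKM. Those 3 sums overlapped between treatments, but single markers moved. Limma called 3 of the 8 epithelial markers higher and 2 lower, and 4 of the 7 stromal markers higher and 2 lower. Of the 6 smooth muscle markers 2 were called higher and 0 lower. Over all tested features 36.6% were called higher and 33.2% lower. Dcn was the largest part of the stromal sum and fell, from a mean of 573 to 290 FPKM, while Hand2, Col1a1 and Hoxa10 rose. Sums that did not overlap were lower in P4 for endothelium (228 to 287 FPKM in oil, 152 to 189 FPKM in P4) and for mesothelium (141 to 156 FPKM, 76.4 to 114 FPKM). Of the 6 endothelial markers 3 fell and 3 were not called, led by Cldn5, the tight junction claudin of vessels, at 123, 109, 141 and 101 FPKM in oil and 51.3, 45.6, 45.7 and 38.1 FPKM in P4. The decreases of Tie1 (-0.35) and Pecam1 (-0.34) were smaller on the log2 scale, and that of Pecam1 was not called without oil replicate 1, oil replicate 3 or P4 replicate 4 (-0.26, -0.29 and -0.29). Of the 5 mesothelial markers 3 fell, led by Upk3b (-0.99), which was not called without oil replicates 1 and 3 (-0.95). In RNA of a whole organ, fewer cells of a type and less RNA per cell cannot be told apart, here or below. The defining markers of decidua and placenta summed to at most 0.103 FPKM in any PRA library. Markers of ovary and oviduct summed to 65.4 to 87.3 FPKM in oil and 39.9 to 52.1 FPKM in P4, of which Foxl2 and Inha, both expressed in uterus as well, made up most, while Fshr was listed at 0 in every PRA library. Skeletal muscle markers summed to 12.5 to 66.9 FPKM in oil and 82.7 to 152 FPKM in P4, which was largely Acta1, while Ckm and Myh4 stayed below 1 FPKM on average. The 2 of these markers that could be tested were called higher, Acta1 (2.27) and 1 that rose from a mean of 5.09 to 6.72 FPKM (0.34). Acta1 measured 8.39, 60.0, 7.80 and 60.7 FPKM in oil and was not called without oil replicates 1 and 3 (0.89).

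Oil replicates 1 and 3 differed from oil replicates 2 and 4 in marker genes too. The 4 fat markers summed to 301, 88.0, 258 and 31.4 FPKM in oil replicates 1 to 4 and to 116, 70.5, 83.1 and 30.9 FPKM in the P4 libraries. The 5 markers of glands summed to 5.17, 20.2, 4.94 and 24.6 FPKM in oil and to 20.2, 22.7, 29.5 and 29.2 FPKM in P4, with Foxa2, the regulator of gland formation, at 2.95, 7.76, 2.94 and 10.1 FPKM in oil. So replicates 1 and 3 had the most fat signal and the least gland signal of the 8 libraries, and of the 4 fat and 3 gland markers that could be tested limma called 0 between treatments (Foxa2 was nearest, adjusted p = 0.056, and it was called without oil replicate 2 or oil replicate 4, with adjusted p of 0.037 and 0.013). Counts that turn on these libraries are given below with each pair left out, an alternative chosen after the data were seen.

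Most of the tested features differed between the P4 and the oil libraries at 6 h. With limma on log2(FPKM + 1) values and Benjamini-Hochberg adjustment, 10760 of 15408 features were called at an adjusted p under 0.05, which is 69.8%. Of these 5646 were higher with P4 (36.6% of those tested) and 5114 were lower (33.2%), and the median change over all features was 0.01. The counts were 5047 and 4407 without oil replicates 1 and 3, and 5472 and 4939 without oil replicates 2 and 4. The 4 P4 and 4 oil values did not overlap in 10204 features, or 66.2%. Most of the changes were small: 1069 features rose and 1121 fell by at least 1 on the log2 scale, 151 and 123 by at least 2, and 31 and 19 by at least 3. Every count of list members below reads against the shares of 36.6% higher and 33.2% lower.

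**Figure D1:**
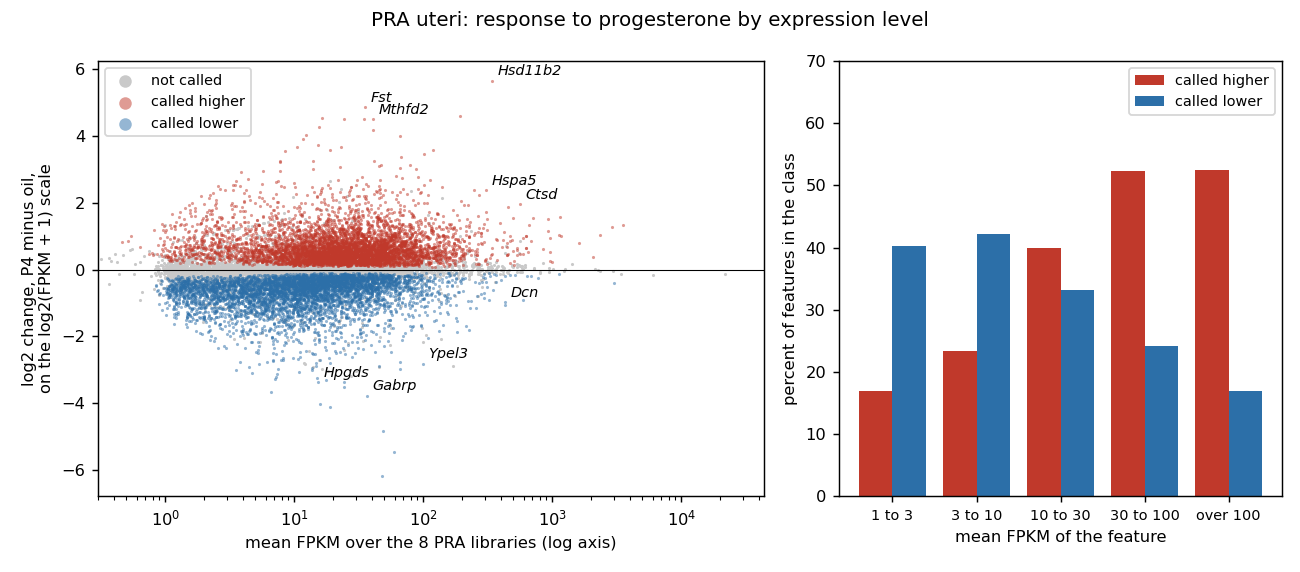
Log2 change with P4 in PRA uteri against mean FPKM over the 8 PRA libraries (left, each point a feature, log x axis) and the percent of features called higher or lower in classes of mean FPKM (right). Increases were more frequent among strongly expressed features (52.4% higher and 16.9% lower at 100 FPKM and above) and decreases among weakly expressed ones (16.98% and 40.3% between 1 and 3 FPKM).

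Direction went with expression level. Between 1 and 3 FPKM, 16.98% of 2067 features rose and 40.3% fell. The shares were 23.3% and 42.2% between 3 and 10 FPKM, 39.98% and 33.1% between 10 and 30 FPKM, and 52.4% and 24.2% between 30 and 100 FPKM. At 100 FPKM and above, 52.4% of 822 features rose and 16.9% fell. Since FPKM are shares of a library, a gain among abundant RNAs lowers the values of the rest, and the part of that in these shares was not tested. The gene lists below were not matched for expression level, and its part in their counts was not tested. Lists and members were chosen with earlier results of these data known, and the part of that choice in their counts and medians was not tested.

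The largest increase was that of Hsd11b2, the enzyme that inactivates glucocorticoids and so protects mineralocorticoid receptors. It measured 10.8, 12.2, 10.9 and 16.2 FPKM in oil and 621, 640.4, 719 and 713 FPKM in P4, a log2 change of 5.65 (SE 0.15, limma adjusted p = 4.9e-12). No library of either group came near the other, and at a mean of 673 ± 50.03 FPKM (SD, n = 4) Hsd11b2 also showed the largest gain in FPKM of any named gene. Fst, which encodes the activin antagonist follistatin, measured 2.14, 0.900, 1.83 and 1.08 FPKM in oil and 69.3, 70.7, 77.8 and 61.1 FPKM in P4, a log2 change of 4.86 (SE 0.13, limma adjusted p = 4.9e-12). Adamtsl2, a secreted protein of the fibrillin matrix, measured 0.195, 0.557, 0.339 and 0.651 FPKM and 32.7, 29.5, 33.6 and 33.7 FPKM, a log2 change of 4.55 (SE 0.11, limma adjusted p = 4.9e-12). Both were near the floor in oil and tightly grouped in P4. Mthfd2, a mitochondrial enzyme of folate one-carbon metabolism, measured 1.49, 2.92, 1.66 and 4.77 FPKM and 63.4, 89.6, 78.9 and 84.8 FPKM, a log2 change of 4.51 (SE 0.26, limma adjusted p = 2.2e-09). Lrp2, the endocytic receptor megalin, measured 0.504, 0.598, 0.497 and 0.722 FPKM and 43.8, 32.8, 23.7 and 22.7 FPKM, a log2 change of 4.28 (SE 0.22, limma adjusted p = 7.3e-10).

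The other 7 genes completed the 12 largest increases among features without overlap. Npl, a lyase of sialic acid, measured 1.42, 5.18, 1.43 and 7.96 FPKM in oil and 98.9, 77.997, 60.5 and 73.4 FPKM in P4 (4.19 on the log2 scale). Il13ra2, the decoy receptor for interleukin 13, measured 0.126, 1.11, 0.225 and 0.729 FPKM and 26.1, 19.6, 26.7 and 23.001 FPKM (4.04). In both genes oil replicates 2 and 4 were above oil replicates 1 and 3, yet far below every P4 library. Sdf2l1, a cofactor of the endoplasmic reticulum chaperone BiP, measured 5.23, 7.15, 5.57 and 10.1 FPKM and 114, 138, 112 and 138 FPKM (4.02). Irg1, the enzyme that makes itaconate, measured 0.385, 0.547, 0.345 and 0.690 FPKM and 28.7, 30.4, 19.8 and 12.3 FPKM (3.92). Slc6a14, a carrier of neutral and basic amino acids, measured 1.26, 1.21, 1.43 and 1.21 FPKM and 31.5, 32.97, 24.9 and 27.2 FPKM (3.72). Fkbp5, a co-chaperone of steroid receptors, and Fam107a, an actin-associated protein, changed by 3.68 and 3.66. The P4 values of Irg1 spread most among them, with replicates 1 and 2 above replicates 3 and 4, and the other 11 were compact on the log axis in the plot of leading genes.

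**Figure D2:**
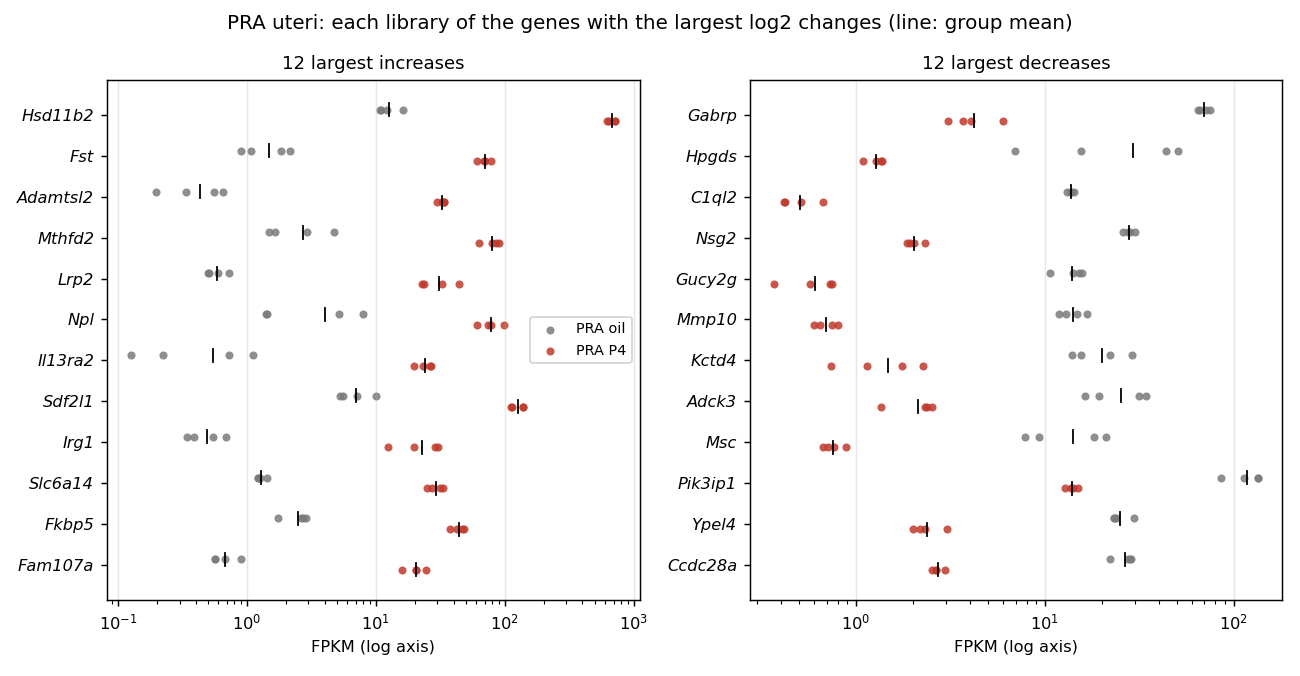
FPKM (log axis) of the 12 genes with the largest increases and the 12 with the largest decreases in each of the 4 oil (grey) and 4 P4 (red) libraries of PRA uteri, with a line at each group mean. No oil library overlaps a P4 library in any of the 24 genes, and Npl, Il13ra2, Hpgds and Msc show oil replicates in separate pairs.

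The largest decrease was that of Gabrp, a subunit of the GABA type A receptor that uterine epithelium expresses. It measured 64.8, 71.3, 75.05 and 66.3 FPKM in oil and 3.08, 4.07, 3.69 and 5.97 FPKM in P4, a log2 change of -3.78 (SE 0.17, limma adjusted p = 2.6e-10). C1ql2, a secreted C1q-like protein, measured 14.3, 13.7, 13.2 and 13.7 FPKM and 0.667, 0.423, 0.511 and 0.416 FPKM, a log2 change of -3.29 (SE 0.22, limma adjusted p = 7.9e-09). Both groups of both genes were narrow. Hpgds, the haematopoietic synthase of prostaglandin D2, measured 50.6, 15.5, 43.9 and 6.93 FPKM and 1.35, 1.09, 1.37 and 1.27 FPKM, a log2 change of -3.37 (SE 0.53, limma adjusted p = 5.1e-05). Here the oil libraries spread widely, with replicates 1 and 3 high, while all 4 P4 libraries were near the floor. Nsg2, a neuronal endosomal protein, changed by -3.26, Gucy2g, a guanylyl cyclase, by -3.21, and Mmp10, the matrix protease stromelysin 2, by -3.14. Kctd4, Adck3 and Msc changed by -3.08, -3.02 and -2.99. Pik3ip1, an inhibitor of PI3 kinase, measured 134, 113, 135 and 85.9 FPKM and 14.97, 14.1, 13.7 and 12.7 FPKM, a log2 change of -2.97 (SE 0.15, limma adjusted p = 7.4e-10). Ypel4 and Ccdc28a changed by -2.94 and -2.90. The 5 features that fell by at least 4 were microRNA or unnamed cDNA features, the groups overlapped in 4 of them, and they are counted but not described.

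Progesterone targets of the uterus were read next. Of 29 listed targets tested, 19 rose and 3 fell, with a median log2 change of 0.68. Beside the genes above, Ihh, the epithelial hedgehog ligand, measured 3.26, 17.1, 4.08 and 21.1 FPKM in oil and 94.4, 79.2, 81.3 and 77.8 FPKM in P4, a log2 change of 3.12 (SE 0.51, limma adjusted p = 6.7e-05). In oil its replicates 2 and 4 were several times replicates 1 and 3, and the P4 libraries were close together. Areg, an EGF family ligand of the epithelium, measured 0.0426, 0.0988, 0.0285 and 0.0548 FPKM and 5.38, 5.81, 6.17 and 3.05 FPKM, a log2 change of 2.50 (SE 0.22, limma adjusted p = 1.6e-07). Zbtb16, the transcription factor PLZF, measured 9.92, 4.52, 11.4 and 3.79 FPKM and 25.95, 30.4, 33.5 and 25.8 FPKM, a log2 change of 1.94 (SE 0.29, limma adjusted p = 2.8e-05). Hoxa11, needed for stroma and implantation, measured 67.7, 88.1, 70.1 and 84.2 FPKM and 205, 211, 209 and 209 FPKM, a log2 change of 1.42 (SE 0.12, limma adjusted p = 8.4e-08). Hand2, the stromal brake on FGF signalling, changed by 1.04 and Hoxa10 by 0.58.

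The other members of that list were picked after their values were seen. Calca, which encodes calcitonin and CGRP, rose from 0.417 ± 0.159 to 7.16 ± 1.78 FPKM (mean ± SD, n = 4), and Cyp26a1, which degrades retinoic acid, by 1.28 on the log2 scale. Gata2 rose by 0.68, Sox17 by 0.49 and the hedgehog effector Gli1 by 0.78, which was not called without oil replicate 1 (0.58) or oil replicate 3 (0.60) or under quantile normalization (0.51). Members that fell were Scx (-2.44), Msx2 (-1.25) and Muc1 (-0.94), a mucin of the epithelial surface. Msx2 was not called without oil replicates 2 and 4 (-0.87). Nr2f2, the hedgehog target COUP-TFII of the stroma, was not called, with 75.7 ± 4.54 FPKM in oil and 74.6 ± 4.36 FPKM in P4, but was lower by limma under quantile normalization (-0.26, adjusted p = 0.0056). Bmp2 was not called, with 6.56 ± 1.04 FPKM and 6.49 ± 0.218 FPKM. The hedgehog receptor and target Ptch1 had 72.6 ± 21.97 FPKM in oil and 60.6 ± 13.7 FPKM in P4 and was not called, but fell without oil replicates 1 and 3 (-0.59, limma adjusted p = 0.037).

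Targets that progesterone shares with glucocorticoids moved as well, 16 of 25 higher and 2 lower, with a median of 0.85. Fkbp5 measured 1.75, 2.64, 2.74 and 2.86 FPKM in oil and 48.1, 46.9, 42.3 and 37.6 FPKM in P4, a log2 change of 3.68 (SE 0.15, limma adjusted p = 1.5e-10). Sgk1, a kinase that raises sodium transport, measured 9.23, 6.03, 7.27 and 7.33 FPKM and 64.9, 53.6, 32.3 and 39.8 FPKM, a log2 change of 2.49 (SE 0.22, limma adjusted p = 1.5e-07). Errfi1, an inhibitor of the EGF receptor, measured 37.4, 28.9, 29.1 and 28.5 FPKM and 162, 169.8, 151 and 154 FPKM, a log2 change of 2.33 (SE 0.16, limma adjusted p = 1.4e-08). All 3 stood clear of oil in every library. Chosen after their values were seen, Mt1 and Mt2, the metallothioneins, changed by 1.26 and 1.23, and Pdk4, which restrains pyruvate oxidation, changed by -1.24. Per1, Klf9 and Tsc22d3, classical glucocorticoid targets, were not called, with mean values of 44.3 ± 12.2, 47.7 ± 11.6 and 118 ± 26.3 FPKM in oil and 37.2 ± 1.24, 40.4 ± 2.63 and 141 ± 3.03 FPKM in P4. Klf9 was called lower without oil replicates 2 and 4 (-0.50, limma adjusted p = 0.03) and Tsc22d3 higher without oil replicates 1 and 3 (0.55, limma adjusted p = 0.043).

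Promoter windows were read for these genes because steroid receptors bind a known palindrome. RefSeq promoter windows (GRCm38.p6, 250 bases before to 50 after each start) matched 11211 of the 15408 features, with 14283 windows. Both strands were searched for the palindrome of GNACA, 3 bases and TGTNC. It occurred in 0.371% of all windows, in 0 of 21 windows of the uterine progesterone targets, in 3 of 33 windows of the glucocorticoid-type targets and in 1 gene of the 12 largest increases, Fam107a. The 4 matches are printed 5′ to 3′ with the motif's fixed arms in capitals and the gap and 6 flanking bases in lower case.
Fam107a: tggcttGGACAtggTGTTCtgagtc
Sgk1: cggaaaGAACAgaaTGTTCtcggag
Mt1: ctatagGGACAtgaTGTTCcacacg
Map3k6: atagggGCACAggcTGTTCcggaag
They lie 118 bases (Fam107a), 188 bases (Sgk1), 94 bases (Mt1) and 181 bases (Map3k6) before the start site, counted to the first motif base. The 250 bases before 1 RefSeq start of Fam107a, with the match in capitals, span chr14:8309780-8310029 on the minus strand of GRCm38.p6. The whole gene is listed at chr14:8296270-8317607, so this start lies inside it. From another listed start the same match lies 120 bases away.
Fam107a promoter: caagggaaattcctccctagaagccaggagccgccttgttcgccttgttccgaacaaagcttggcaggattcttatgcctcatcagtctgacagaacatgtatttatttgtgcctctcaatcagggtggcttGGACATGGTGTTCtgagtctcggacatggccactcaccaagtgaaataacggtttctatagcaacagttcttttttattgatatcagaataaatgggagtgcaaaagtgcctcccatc
Fam107a measured 0.677, 0.564, 0.899 and 0.561 FPKM in oil and 24.5, 20.5, 20.4 and 15.9 FPKM in P4, and Map3k6 changed by 1.00 on the log2 scale. All 4 genes rose, but Fam107a was drawn from the largest increases and the other 3 from a list in which 16 of 25 rose. Over all 49 tested features with the palindrome 19 rose (38.8%) and 21 fell (42.9%), and of all 11211 features with a window 38.9% rose and 33.2% fell. The half-site TGTTCT was in 12.8% of all windows, and of the 1680 features with it 36.2% rose. Elements farther from the start were not read.

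Most genes of the secretory pathway on the lists rose. Of 51 tested genes of endoplasmic reticulum folding and the unfolded protein response, 45 rose and 2 fell (median log2 change 0.92), and their summed FPKM went from 1942, 2096, 2082 and 2127 in the 4 oil libraries to 4723, 5267, 4894 and 5333 in the 4 P4 libraries. Hspa5, which encodes BiP, the main HSP70 chaperone of the organelle, measured 90.1, 98.4, 99.9 and 107 FPKM in oil and 486, 537, 483 and 559 FPKM in P4, a log2 change of 2.37 (SE 0.08, limma adjusted p = 5.9e-11). Creld2, a secreted stress marker of the organelle, measured 12.1, 13.8, 12.9 and 15.8 FPKM and 109, 132, 109.7 and 124 FPKM, a log2 change of 3.03 (SE 0.09, limma adjusted p = 1.8e-11). Manf, another secreted protein of that stress response, measured 12.4, 14.6, 14.8 and 17.1 FPKM and 97.8, 114, 106 and 116 FPKM, a log2 change of 2.81 (SE 0.10, limma adjusted p = 8.6e-11). Hyou1, a nucleotide exchange factor of BiP, measured 18.8, 22.8, 20.7 and 26.98 FPKM and 144, 166, 153 and 171 FPKM, a log2 change of 2.78 (SE 0.10, limma adjusted p = 8.6e-11). In all of these the highest oil library was far under the lowest P4 library.

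Many genes of the unfolded protein response carry the ER stress element, CCAAT, 9 bases and CCACG, which NF-Y and ATF6 bind. It was found in 20 of 14283 windows (0.140%), of which 10 belonged to genes of this list, 10 of its 55 windows (18.2%). The matches of 8 members that rose are printed on the motif's strand, arms in capitals and the gap in lower case. That strand is opposite to the gene's strand in Calr, in Creld2 and in the Hsp90b1 match so labelled.
Hspa5: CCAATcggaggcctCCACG
Hsp90b1: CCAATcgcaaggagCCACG
Hsp90b1, opposite strand: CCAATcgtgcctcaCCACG
Calr: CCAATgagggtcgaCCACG
Canx: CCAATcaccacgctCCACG
Pdia6: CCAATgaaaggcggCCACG
Dnajc3: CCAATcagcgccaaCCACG
Creld2: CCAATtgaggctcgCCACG
Syvn1: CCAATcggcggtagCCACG
Their first bases lie 65 (Hspa5), 212 and 107 (Hsp90b1), 162 (Calr), 145 (Canx), 98 (Pdia6), 105 (Dnajc3), 126 (Creld2) and 44 (Syvn1) bases before the start site, on the gene's strand. The 250 bases before the start of Hspa5, at chr2:34771840-34772089 on the plus strand of GRCm38.p6, are given as the example with the largest gain in FPKM among them.
Hspa5 promoter: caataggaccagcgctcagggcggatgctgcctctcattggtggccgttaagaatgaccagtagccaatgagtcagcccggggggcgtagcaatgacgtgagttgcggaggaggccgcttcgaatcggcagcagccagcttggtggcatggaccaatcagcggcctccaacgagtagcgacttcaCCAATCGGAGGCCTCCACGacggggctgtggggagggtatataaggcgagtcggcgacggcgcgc
Outside Hspa5 and Creld2 these genes were named for their window after their values were seen. Hsp90b1, the HSP90 of the endoplasmic reticulum, rose from 84.6 ± 6.80 to 328 ± 27.1 FPKM, Calr (calreticulin) from 143 ± 18.1 to 471 ± 34.9 FPKM and Pdia6, a disulfide isomerase, from 51.4 ± 4.70 to 171 ± 11.8 FPKM (mean ± SD, n = 4). Canx, Dnajc3 and Syvn1 rose by 1.30, 1.81 and 1.10 on the log2 scale. The other 2 members with the element were Derl3, which fell (-0.71), and Ero1lb, which was not called (-0.27, and -0.32 with an adjusted p of 0.042 without oil replicate 4). Derl3 was not called without oil replicates 1 and 3 (-0.43). Of all 20 features with the element 11 rose and 6 fell, so that outside the list 3 of 10 rose, beside 38.9% of all features with a window.

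Transcripts of cargo handling rose with those of folding. Of 59 tested genes of translocation and vesicle coats 56 rose and 3 were not called (median 0.77). Sec61b, a subunit of the translocon, measured 40.3, 53.6, 48.7 and 60.8 FPKM in oil and 116, 131, 138 and 143 FPKM in P4, and Sec23b, of the COPII coat, measured 29.7, 38.6, 33.6 and 42.1 FPKM and 162, 149, 131 and 142 FPKM, a log2 change of 2.00 (SE 0.11, limma adjusted p = 1.4e-09). Uso1, a tether of vesicles at the Golgi, changed by 1.51, and Kdelr3, a receptor that returns escaped chaperones, by 1.48. Of 50 genes of N-glycosylation and hexosamine synthesis 41 rose and 3 fell (median 0.63), led after Npl by Slc35b1, the carrier that brings ATP into the organelle (2.25), Mpi (2.20) and Gmppb (2.17), which make and activate mannose phosphate. Among secreted and lysosomal cargo, Ctsd, the protease cathepsin D, measured 218, 229, 237 and 227 FPKM and 975, 953, 796 and 827 FPKM, a log2 change of 1.95 (SE 0.11, limma adjusted p = 1.8e-09). Its gain in FPKM was exceeded by that of Hsd11b2 alone.

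Genes of the ATF4 type, which respond to amino acid shortage and to stress of the endoplasmic reticulum, had the highest list median. Of 34 tested 27 rose and 2 fell (median 1.26). Asns, asparagine synthetase, measured 8.04, 6.85, 8.03 and 6.90 FPKM in oil and 37.9, 60.9, 58.9 and 56.97 FPKM in P4, a log2 change of 2.67 (SE 0.13, limma adjusted p = 5.5e-10). Chac1, which breaks down glutathione, measured 2.34, 1.83, 1.96 and 2.01 FPKM and 12.9, 28.2, 13.3 and 17.6 FPKM, a log2 change of 2.58 (SE 0.42, limma adjusted p = 6.6e-05). Gdf15, a stress hormone, measured 0.691, 0.798, 0.709 and 1.22 FPKM and 4.42, 11.6, 9.37 and 6.48 FPKM, a log2 change of 2.21 (SE 0.32, limma adjusted p = 2.1e-05). P4 replicate 1 was the lowest of its group in all 3, and the list's summed FPKM put it there too, with 1751, 2334, 2239 and 2258 in P4 against 987, 969, 950.3 and 956 in oil. Without that replicate 26 members rose and 1 fell.

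The amino acid response element, TGATGNAA, was in 2.35% of all windows and in 9 of the 33 windows of this list (27.3%). Matches of the 5 members that rose are printed on the motif's strand, with the motif in capitals and 8 bases on each side. That strand is opposite to the gene's strand in Chac1, Trib3 and Nupr1.
Asns: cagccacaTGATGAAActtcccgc
Chac1: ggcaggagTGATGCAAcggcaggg
Trib3: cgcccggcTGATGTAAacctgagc
Nupr1: gccctgtcTGATGCAAtctggccc
Pycr1: cctgtgtaTGATGCAAtgcacaag
They lie 23 bases (Asns), 193 bases (Chac1), 110 bases (Nupr1) and 103 bases (Pycr1) before the start site, and in Trib3 at base 15 after it. The 250 bases before the start of Asns, at chr6:7693210-7693459 on the minus strand, show its surroundings.
Asns promoter: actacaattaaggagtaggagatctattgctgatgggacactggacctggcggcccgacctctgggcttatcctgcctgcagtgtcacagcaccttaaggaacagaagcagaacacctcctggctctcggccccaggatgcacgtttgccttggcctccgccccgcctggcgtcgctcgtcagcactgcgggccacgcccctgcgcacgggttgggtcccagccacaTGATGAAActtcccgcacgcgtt
Trib3, Nupr1 and Pycr1, named for their windows, rose by 0.81, 0.41 and 1.88. Trib3 was not called without oil replicate 2, oil replicate 4 or P4 replicate 2 (0.65 to 0.71), and Nupr1 not in 5 of the 8 fits without 1 PRA library (0.36 to 0.41) or under quantile normalization (0.23). The other 4 members with the element were Vldlr (-0.41) and Slc7a11 (-0.59), which fell, and Atf3 (0.95) and Pck2 (-0.05), which were not called. Vldlr was not called without oil replicates 1 and 3 (-0.31). Atf3 was called without oil replicate 1 (1.56, limma adjusted p = 0.0053), a library at 23.03 FPKM beside 2.85 to 3.90 in the other oil libraries, and Slc7a11 was not called without oil replicate 4 (-0.45) or P4 replicate 1 (-0.49). Over all 320 features with the element 33.1% rose and 36.3% fell, close to the shares of all features with a window.

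Genes of amino acid supply and charging moved as well. Of 23 cytosolic tRNA synthetases 22 rose and 1 was not called (median 1.15). Aars, for alanine, measured 13.2, 17.5, 12.3 and 20.1 FPKM in oil and 69.6, 92.9, 88.8 and 89.7 FPKM in P4, a log2 change of 2.38 (SE 0.16, limma adjusted p = 1.1e-08). Mars, for methionine, and Gars, for glycine, changed by 1.83 and 1.79. Of 28 serine and one-carbon enzymes 21 rose and 7 fell (median 0.81). Phgdh, the first enzyme of serine synthesis, measured 12.7, 11.8, 11.9 and 14.9 FPKM and 50.5, 85.9, 90.9 and 86.5 FPKM, a log2 change of 2.49 (SE 0.17, limma adjusted p = 8.8e-09), and Mthfd1 and Aldh1l2, of the folate cycle, changed by 2.22 and 2.27. P4 replicate 1 was again the lowest for Phgdh, Mars and Aldh1l2. Amino acid transporters split, with 11 of 32 higher and 14 lower (median -0.18). Slc6a14, Slc1a4 (2.38), Slc7a5 (1.73) and Slc7a1 (1.53) led the increases.

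Transcripts of ribosome biogenesis factors rose almost without exception, while those of ribosomal proteins did not. Of 90 tested ribosome biogenesis factors 88 rose and 2 were not called (median 1.02), with summed FPKM of 2045, 2214, 2229 and 2303 in oil and 4173, 4370.1, 4482 and 4441 in P4. Rrp12, an export factor of the pre-ribosome, measured 2.73, 3.46, 3.45 and 4.36 FPKM in oil and 21.96, 23.7, 25.1 and 24.2 FPKM in P4, a log2 change of 2.47 (SE 0.10, limma adjusted p = 1.7e-10). Bysl, of the small subunit's processing, measured 4.01, 5.11, 4.20 and 6.35 FPKM and 25.2, 24.8, 25.7 and 24.9 FPKM, a log2 change of 2.16 (SE 0.12, limma adjusted p = 1.8e-09). Ddx21, an RNA helicase of the nucleolus, measured 19.1, 22.8, 21.4 and 27.6 FPKM and 91.8, 102, 105 and 105 FPKM, a log2 change of 2.11 (SE 0.10, limma adjusted p = 4.9e-10). Of 81 cytosolic ribosomal protein genes 13 rose and 16 fell (median -0.03), and their sums were 23541, 26822, 28094 and 25090.5 in oil and 24801, 26839.9, 26046 and 27529 in P4, groups that overlapped. With 1 PRA library left out 7 to 19 fell, 7 without oil replicate 3 and 8 without P4 replicate 1. Quantile normalization turned that split to 6 higher and 66 lower, so the direction of the ribosomal proteins as a group rests on the scaling. Ribosomal protein genes have many near-identical pseudogenes, and how multiply mapping fragments were assigned is not given in the sources used here. MYC binds the E-box CACGTG, which was in 16.9% of the windows of ribosome biogenesis factors and in 9.68% of all windows, and of all 1292 features with it 44.8% rose, beside 38.9% of all features with a window. Myc itself measured 43.7, 33.97, 44.2 and 35.7 FPKM in oil and 70.7, 83.7, 86.1 and 82.6 FPKM in P4, a log2 change of 1.02 (SE 0.13, limma adjusted p = 6.3e-06), whereas Mycn fell (-2.18) and Mxi1, a MYC antagonist, fell (-1.97).

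**Figure D3:**
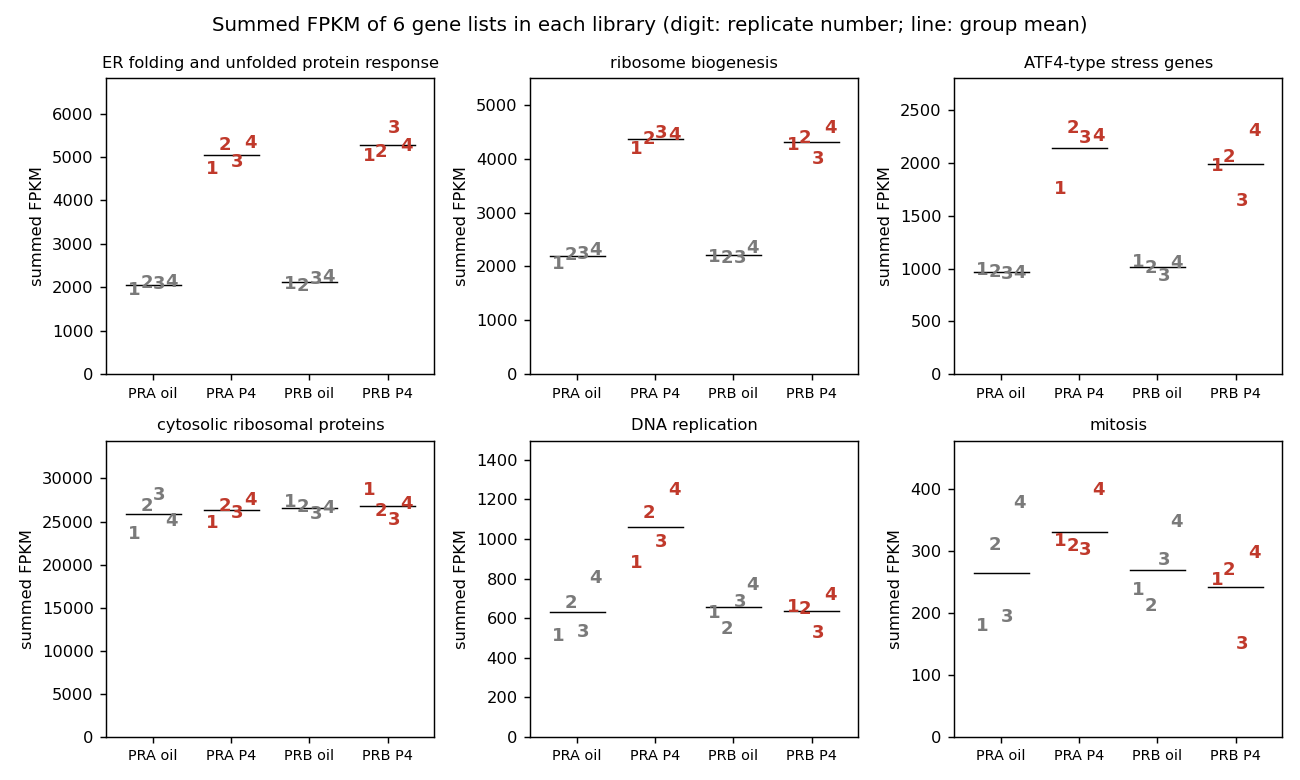
Summed FPKM of 6 gene lists in each of the 16 libraries, by strain and treatment (digits are replicate numbers, lines are group means, axes start at 0). P4 libraries stand clear of oil in the lists of endoplasmic reticulum folding, ribosome biogenesis and ATF4-type genes in both strains, and in PRA all 4 P4 sums for DNA replication lie above all 4 oil sums. Sums of cytosolic ribosomal proteins and of mitosis genes overlap between treatments.

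Translation factors, chaperones and the proteasome followed. Of 53 initiation and elongation factors 42 rose and 5 fell (median 0.67; 3 fell without oil replicate 3, P4 replicate 2 or P4 replicate 3, and 9 under quantile normalization), with Eif4e, the cap-binding protein, at 19.5, 24.5, 23.2 and 26.3 FPKM in oil and 69.9, 69.3, 67.99 and 69.7 FPKM in P4. Eif2s1 and Eif2s2, subunits of the factor that brings the initiator tRNA, changed by 1.39 and 1.48. Of 52 cytosolic chaperones 46 rose and 3 fell (median 0.77). Hsph1, of the HSP110 family, measured 10.2, 12.95, 16.3 and 16.9 FPKM and 73.4, 73.2, 75.8 and 88.2 FPKM, a log2 change of 2.40 (SE 0.18, limma adjusted p = 2.8e-08), and Hsp90aa1, the inducible HSP90 that holds steroid receptors, measured 65.97, 80.9, 71.8 and 87.8 FPKM and 235, 275, 254 and 291 FPKM, a log2 change of 1.77 (SE 0.09, limma adjusted p = 1.1e-09). Fkbp4, Ptges3 and Stip1, co-chaperones of the same complex, changed by 1.09, 1.16 and 1.62. Of 47 proteasome genes 40 rose and 1 fell (median 0.64), with Psmc5 of the ATPase ring at 33.1, 40.3, 34.5 and 42.6 FPKM and 87.1, 88.4, 93.3 and 95.1 FPKM.

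Most mitochondrial genes on the lists rose. Of 76 mitochondrial ribosomal proteins 69 rose and 1 fell (median 0.53), of 40 import factors and chaperones 34 rose and 6 were not called (median 0.61), and of 77 subunits of the respiratory chain and ATP synthase 69 rose and 2 fell (median 0.45). Cycs, cytochrome c, led the last group with 6.26, 6.94, 6.63 and 8.14 FPKM in oil and 30.9, 35.4, 31.6 and 33.6 FPKM in P4, a log2 change of 2.09 (SE 0.08, limma adjusted p = 1e-10). Cox5a, of complex IV, and Atp5g1, of the ATP synthase, changed by 1.30 and 1.17. Hspd1 and Hspe1, the chaperonin pair of the matrix that shares 1 promoter region, changed by 1.66 and 1.54. Timm8a1 and Timm10, small import chaperones, changed by 1.77 and 1.46.

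Genes of central metabolism moved in both directions. Of 35 genes of glycolysis and lactate 18 rose and 11 fell. Slc2a3, the glucose transporter GLUT3, measured 8.42, 9.60, 8.89 and 8.12 FPKM in oil and 76.8, 84.6, 82.7 and 83.9 FPKM in P4, a log2 change of 3.09 (SE 0.18, limma adjusted p = 2.6e-09). Pfkfb3, which makes the activator of phosphofructokinase, measured 21.3, 19.1, 23.3 and 21.3 FPKM and 132, 112, 104 and 98.5 FPKM, a log2 change of 2.33 (SE 0.10, limma adjusted p = 2.1e-10). Hk2, a hexokinase, measured 4.14, 5.13, 3.99 and 5.85 FPKM and 29.8, 25.9, 28.1 and 23.4 FPKM, a log2 change of 2.27 (SE 0.16, limma adjusted p = 1.8e-08). Of 43 genes of pentose phosphate and nucleotide synthesis 34 rose and 5 fell (median 0.60), among them Ctps (2.24), Nme1 (2.03) and Cad (1.63). Of 15 polyamine genes 9 rose and 4 fell. Srm, spermidine synthase, measured 19.1, 23.6, 17.5 and 25.7 FPKM and 108, 107, 133 and 121 FPKM, a log2 change of 2.40 (SE 0.13, limma adjusted p = 1.5e-09), and Odc1, the rate-limiting decarboxylase, measured 20.3, 21.3, 18.4 and 24.8 FPKM and 63.3, 65.2, 66.7 and 65.3 FPKM, a log2 change of 1.58 (SE 0.13, limma adjusted p = 7.7e-08). Adc, now known as an inhibitor of antizyme, fell (-1.39).

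Lipid genes moved in both directions. Of 38 genes of cholesterol synthesis and uptake 24 rose and 9 fell (median 0.48). Lrp8, a lipoprotein receptor, measured 0.261, 0.485, 0.395 and 0.482 FPKM in oil and 4.64, 5.21, 4.29 and 4.13 FPKM in P4, a log2 change of 1.98 (SE 0.11, limma adjusted p = 1.7e-09). Of 36 fatty acid genes 13 rose and 9 fell, with the elongase Elovl5 up (1.06) and Acacb, Lpin1 and the lipase Pnpla2 down (-0.94, -1.15 and -1.03). Pnpla2 and Lpin1 were highest in oil replicates 1 and 3, the libraries with the most fat signal, and the part of fat tissue in these decreases was not tested. Of 20 steroid-metabolizing enzymes 8 rose and 6 fell. Hsd17b7 rose (1.57), and Hsd17b11 and Akr1c14, which are steroid dehydrogenases, fell (-1.52 and -1.48).

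DNA replication genes rose in PRA uteri, with wide spread among the oil libraries. Of 53 tested 43 rose and 2 fell (median 0.73). Their summed FPKM was 508, 676, 530.4 and 802 in oil and 879, 1131, 987 and 1245 in P4, without overlap, although the highest oil library (replicate 4) came near the lowest P4 library (replicate 1). Uhrf1, which copies DNA methylation at the fork, measured 3.46, 10.8, 3.08 and 17.8 FPKM in oil and 25.5, 38.8, 29.2 and 41.2 FPKM in P4, a log2 change of 2.09 (SE 0.49, limma adjusted p = 0.0015). Rrm2, a subunit of ribonucleotide reductase, measured 1.11, 3.65, 1.30 and 5.56 FPKM and 8.76, 10.9, 10.6 and 14.1 FPKM, a log2 change of 1.78 (SE 0.34, limma adjusted p = 0.00026). Top2a, the topoisomerase of dividing cells, measured 2.35, 10.6, 2.45 and 15.7 FPKM and 19.7, 22.9, 20.6 and 30.9 FPKM, a log2 change of 1.81 (SE 0.54, limma adjusted p = 0.0078). E2f1, the S phase transcription factor, measured 1.87, 4.54, 1.44 and 7.55 FPKM and 8.79, 16.1, 13.1 and 17.8 FPKM, a log2 change of 1.77 (SE 0.37, limma adjusted p = 0.00067). In each of these 4 genes oil replicates 2 and 4 were several times replicates 1 and 3. Top2a alone of the 4 was not called without oil replicates 1 and 3 (0.80, adjusted p = 0.19). With 1 oil replicate left out the number that rose was 37 to 47. Without oil replicates 1 and 3 it was 21, with a median of 0.40, and without oil replicates 2 and 4 it was 47, with a median of 0.94, so the size of this increase rests on which oil libraries it is read against.

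Mitosis genes did not separate the treatments as a list. Of 42 tested 9 rose and 2 fell (median 0.53), and the summed FPKM was 179, 311, 194 and 378 in oil and 316, 308, 302 and 398 in P4, so that 3 of the 4 P4 libraries lay within the range of oil. Against oil replicates 2 and 4 alone 1 member rose, with a median of -0.05, and against oil replicates 1 and 3 alone 35 rose, with a median of 1.14. Leaving out 1 PRA library at a time gave 2 to 23 increases: 2 without oil replicate 1, oil replicate 3 or P4 replicate 4, 4 without P4 replicate 3, 5 without P4 replicate 1 or P4 replicate 2, and 23 without oil replicate 4. The number was 19 under quantile normalization. Gland and fat markers divided the oil libraries in the same way, and their part was not tested. Bub3, a checkpoint protein, rose (0.61), and Pttg1 (securin) and Cdc25b fell (-0.57 and -0.51), although Pttg1 was not called without oil replicate 3 (-0.49) or P4 replicate 3 (-0.47). Mki67, the usual marker of cycling cells, was read after its values were seen and was not called, with 5.42 ± 4.80 FPKM in oil and 7.90 ± 1.93 FPKM in P4 (1.23, limma adjusted p = 0.047 without oil replicate 4, and 1.82, adjusted p = 0.0053 without oil replicates 2 and 4). Among 31 brakes of the cycle and G1 cyclins 8 rose and 15 fell. Cdkn1a, the inhibitor p21, measured 10.8, 11.9, 11.2 and 12.7 FPKM in oil and 20.01, 47.6, 43.4 and 51.95 FPKM in P4, a log2 change of 1.64 (SE 0.22, limma adjusted p = 1e-05), with P4 replicate 1 again the lowest, and Ccng1, another p53 target, changed by 1.502. Chosen after their values were seen, Cdkn1b (p27) fell by 0.96 on the log2 scale and Cdk4 changed by 0.77.

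Decreases outnumbered increases among WNT, FGF and IGF genes. Of 46 WNT genes 6 rose and 22 fell (median -0.34). Fzd10, a receptor, measured 83.8, 72.9, 107 and 66.6 FPKM in oil and 15.5, 17.4, 12.7 and 17.5 FPKM in P4, a log2 change of -2.31 (SE 0.21, limma adjusted p = 1.8e-07). Wnt7a, the ligand of uterine epithelium, measured 63.3, 83.5, 66.7 and 95.7 FPKM and 28.3, 24.7, 16.8 and 20.5 FPKM, a log2 change of -1.74 (SE 0.19, limma adjusted p = 1.5e-06), and Rspo3, a stromal amplifier of the pathway, measured 91.6, 76.9, 90.2 and 68.2 FPKM and 25.1, 30.7, 19.6 and 24.4 FPKM, a log2 change of -1.68 (SE 0.21, limma adjusted p = 5.5e-06). Wif1, a secreted WNT inhibitor, fell as well (-1.83), from oil values of 3.56, 14.6, 3.35 and 17.3 FPKM in which replicates 2 and 4 were the high ones, and it was not called without them (-0.86). WNT increases numbered 3 without oil replicate 1. Of 26 FGF genes 5 rose and 15 fell (median -0.49). Il17rd, a feedback inhibitor, measured 12.1, 13.2, 12.1 and 12.2 FPKM and 3.75, 3.48, 3.64 and 3.68 FPKM, a log2 change of -1.53 (SE 0.06, limma adjusted p = 1.4e-10). The stromal ligands parted, with Fgf18 down (-1.23) and Fgf10 up (1.29), and the FGF-responsive factor Etv1 fell (-1.31).

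Of 19 IGF genes 3 rose and 10 fell (median -0.56). Igf1, the ligand, was the largest increase, at 15.4, 16.3, 14.2 and 18.2 FPKM in oil and 62.3, 63.6, 86.8 and 85.2 FPKM in P4, a log2 change of 2.14 (SE 0.20, limma adjusted p = 3.1e-07). Igfbp3, a carrier of IGFs, measured 289, 144, 289 and 151 FPKM and 79.1, 64.2, 65.1 and 51.9 FPKM, a log2 change of -1.67 (SE 0.28, limma adjusted p = 7.4e-05), and Irs2, an adaptor of the receptor, changed by -1.40. So the ligand rose while carrier and adaptor fell. Among 13 EGF family genes 4 rose and 5 fell: Areg and Errfi1 rose, and the ligand Btc and the receptor Erbb2 fell (-0.90 and -0.90). Of 16 hedgehog genes 8 rose and 2 fell. Scube1, which releases hedgehog ligands, measured 3.94, 18.9, 3.67 and 27.2 FPKM and 51.6, 47.5, 77.4 and 68.4 FPKM, a log2 change of 2.52 (SE 0.58, limma adjusted p = 0.0013), with the oil replicates in the same pairs as for Ihh. Scube2, its relative, changed by 1.36 and the effector Gli3 by 0.78.

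Of 49 BMP, activin and TGF-beta genes 13 rose and 19 fell. Fst was accompanied by Fstl3, a second activin antagonist, at 7.84, 8.38, 6.84 and 8.48 FPKM in oil and 41.8, 41.2, 56.7 and 43.6 FPKM in P4, a log2 change of 2.39 (SE 0.14, limma adjusted p = 1.9e-09). Inha, which encodes the alpha chain of inhibin, measured 26.8, 20.1, 24.2 and 16.7 FPKM and 5.09, 8.40, 5.87 and 6.67 FPKM, a log2 change of -1.61 (SE 0.16, limma adjusted p = 5.6e-07). Inha also serves as a marker of ovary, in a list of 7 markers of which 3 could be tested. Of those 3, 2 were called lower, Inha and Foxl2 (-0.57), and 0 higher. Among the markers that could not be tested, Fshr was listed at 0 in every PRA library. Cyp19a1 averaged 0.00163 FPKM in oil and 0.00513 FPKM in P4, and Amh averaged 0.612 and 1.33 FPKM. The part of ovarian tissue was not tested. Of 24 Notch genes 6 rose and 11 fell. Maml3, a coactivator, measured 13.4, 11.5, 11.3 and 9.64 FPKM and 2.10, 2.05, 2.06 and 2.06 FPKM, a log2 change of -2.01 (SE 0.11, limma adjusted p = 1.4e-09), the ligand Jag1 changed by -1.34, and Heyl, a target, by 1.20. Of 24 genes of LIF and IL6 receptor signalling 8 rose and 10 fell. Lifr, the receptor of the implantation signal LIF, measured 27.02, 18.6, 29.6 and 17.8 FPKM and 5.83, 5.72, 5.35 and 5.18 FPKM, a log2 change of -1.86 (SE 0.17, limma adjusted p = 2e-07). Clcf1, a ligand of the family, and the kinase Pim1 fell (-1.32 and -1.89), and Il6 rose (1.72) from at most 0.0960 FPKM in oil.

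Prostaglandin genes rose in 12 and fell in 8 of 27. Beside Hpgds, Ptgdr, a receptor of prostaglandin D2, measured 19.2, 2.03, 18.6 and 0.785 FPKM in oil and 0.221, 0.233, 0.185 and 0.186 FPKM in P4, a log2 change of -2.50 (SE 0.74, limma adjusted p = 0.0075). Its oil replicates 1 and 3 were far above replicates 2 and 4, the same libraries in which Hpgds was high, and without them its change was -0.95 (limma adjusted p = 0.2). Ptgs2, the inducible cyclooxygenase, measured 1.14, 0.779, 0.377 and 1.31 FPKM and 3.75, 3.63, 3.37 and 3.09 FPKM, a log2 change of 1.26 (SE 0.20, limma adjusted p = 4.3e-05), and the phospholipase Pla2g10 25.8, 25.9, 32.4 and 22.2 FPKM and 120.4, 121, 82.7 and 92.8 FPKM. Of 20 cyclic GMP genes 4 rose and 13 fell (median -0.53). Gucy2g measured 14.03, 15.7, 15.2 and 10.6 FPKM and 0.729, 0.743, 0.368 and 0.571 FPKM, a log2 change of -3.21 (SE 0.17, limma adjusted p = 1.3e-09). Pde5a, which degrades cyclic GMP, fell (-1.18), and the ligands Guca2b (1.53) and Nppc (1.46) rose.

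**Figure D4:**
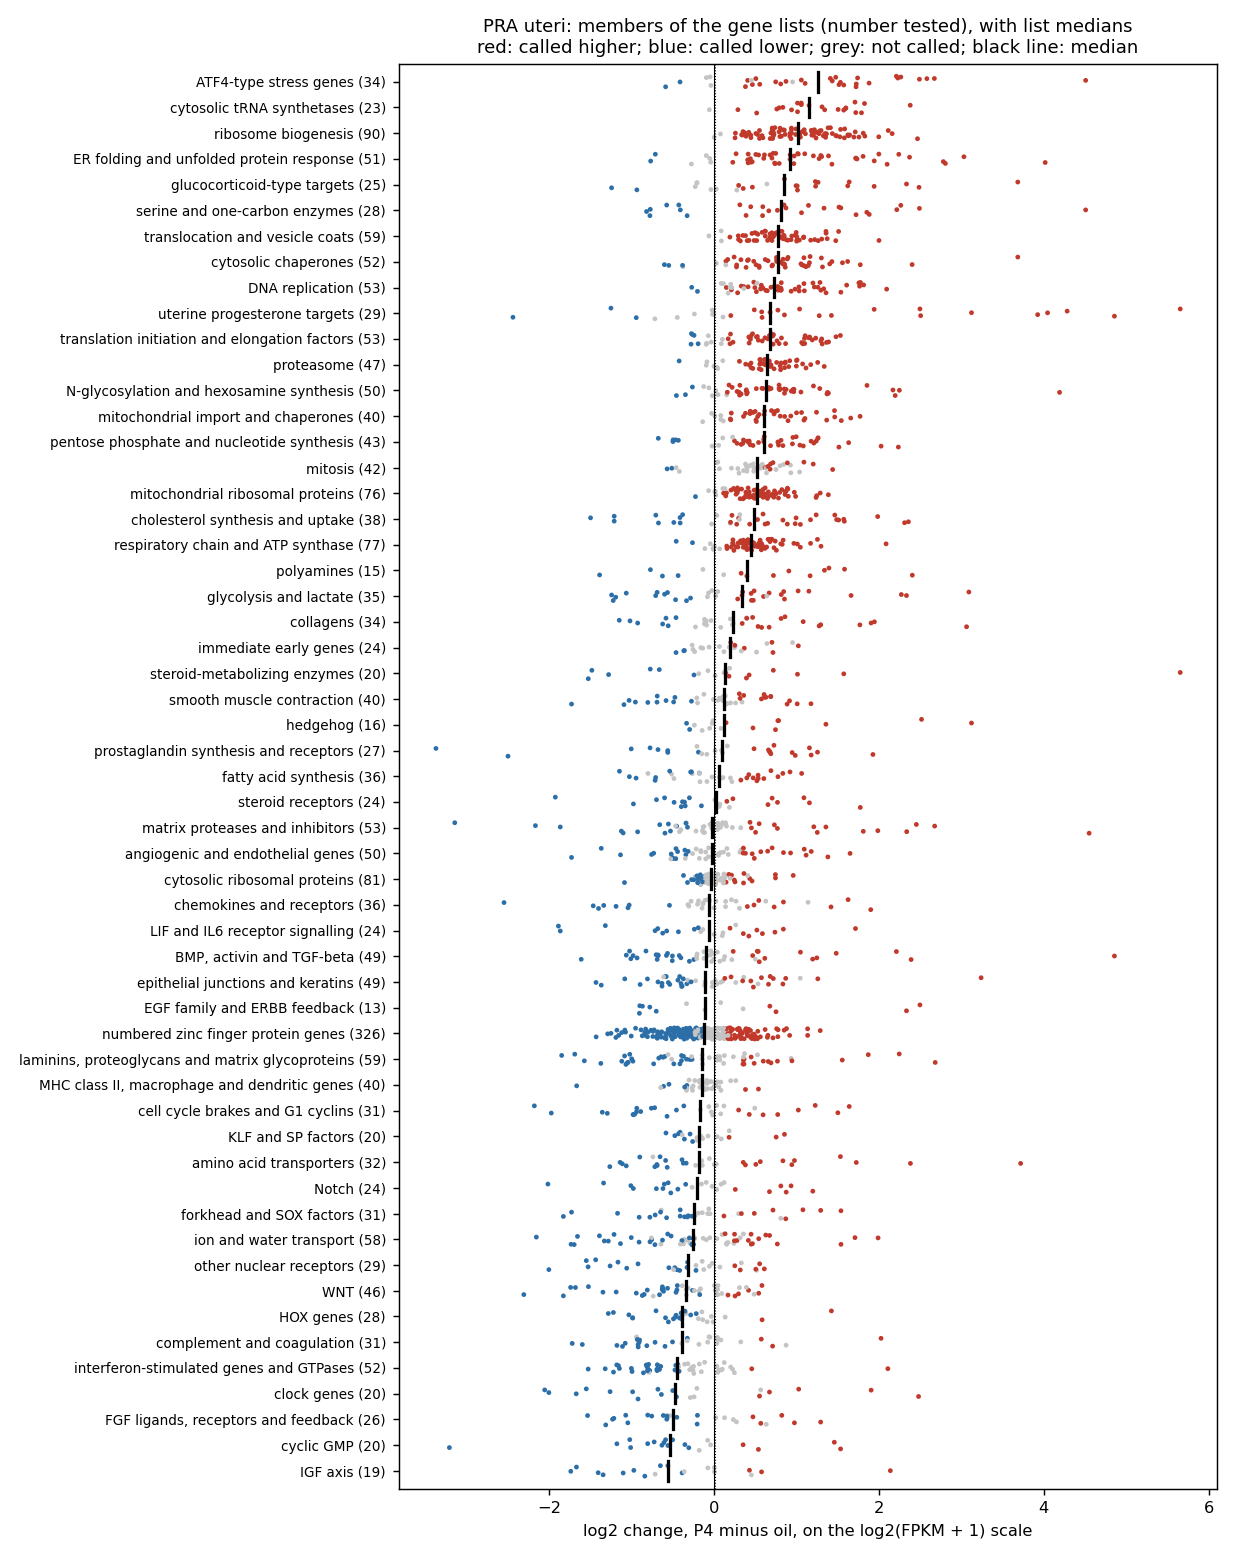
Log2 change with P4 in PRA uteri for every tested member of the gene lists (points), sorted by list median (black lines), with the number of members tested beside each name. ATF4-type genes, tRNA synthetases and ribosome biogenesis factors stand at the top with medians of 1.26, 1.15 and 1.02, and IGF, cyclic GMP and FGF genes at the bottom with -0.56, -0.53 and -0.49. Lists and members were chosen with earlier results of these data known.

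In most families of transcription factors decreases outnumbered increases, as they did among all tested features below 10 FPKM. The part of expression level in these counts was not tested. Of 28 HOX genes 2 rose and 18 fell (median -0.39), the increases being Hoxa11 and Hoxa10. Hoxd4 measured 70.9, 72.9, 76.4 and 62.04 FPKM in oil and 24.2, 30.8, 27.7 and 31.3 FPKM in P4, a log2 change of -1.28 (SE 0.10, limma adjusted p = 2.6e-08), and Hoxc6 and Hoxa5 changed by -1.22 and -1.03. Of 24 steroid receptors and related genes 8 rose and 11 fell, with the membrane receptor Paqr6 at -1.92. Of 29 other nuclear receptors 5 rose and 15 fell (median -0.32), with Nr1d1 (-2.002), Vdr (-1.53) and Thra (-1.43) among the decreases. Of 326 numbered zinc finger protein genes 75 rose and 141 fell (median -0.12), which is 23.01% and 43.3%. Zfp874b, Zfp949 and Zfp811 fell by more than 1 on the log2 scale, and Zfp57, which maintains imprints, rose (1.29). Of 20 KLF and SP factors 3 rose and 7 fell, with Klf15, a known progesterone and glucocorticoid target, at 51.9, 38.7, 47.3 and 30.8 FPKM and 72.7, 72.8, 80.2 and 77.05 FPKM. Among 31 forkhead and SOX factors 8 rose (5 without P4 replicate 2) and 15 fell, with Foxo4 at 54.96, 47.4, 56.4 and 43.95 FPKM and 15.8, 12.7, 13.4 and 12.3 FPKM and Sox7, of endothelium, at -1.73.

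Clock genes fell more often than they rose, 11 lower and 5 higher of 20 (median -0.48). Dbp, an output of the clock, measured 174, 175, 203 and 146 FPKM in oil and 59.99, 32.7, 45.9 and 31.5 FPKM in P4, a log2 change of -2.05 (SE 0.33, limma adjusted p = 5.1e-05). Nr1d1, the repressor REV-ERB alpha, measured 128, 103, 141 and 80.004 FPKM and 31.6, 20.3, 32.8 and 24.4 FPKM, a log2 change of -2.002 (SE 0.21, limma adjusted p = 7.2e-07). Nfil3, which opposes DBP, measured 7.44, 8.13, 6.22 and 9.10 FPKM and 39.96, 58.1, 47.5 and 45.5 FPKM, a log2 change of 2.48 (SE 0.17, limma adjusted p = 1.4e-08), and Npas2 changed by 1.91. The time of day of collection is not given in the sources used here. Of 24 immediate early genes 6 rose and 3 fell, with Zfp36 (0.72) and Ier5 (0.70) up, and 10 rose without oil replicate 1. The decreases numbered 1 without oil replicate 1, oil replicate 3, P4 replicate 1 or P4 replicate 4, and 9 without oil replicates 2 and 4.

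Matrix genes moved in both directions. Of 34 collagens 15 rose and 7 fell. Col12a1, which lies on collagen fibrils, measured 3.76, 3.43, 3.20 and 5.99 FPKM in oil and 36.1, 48.8, 35.1 and 44.2 FPKM in P4, a log2 change of 3.06 (SE 0.18, limma adjusted p = 2.9e-09). Col15a1 and Col9a2 changed by 1.95 and 1.90. P4ha2, which hydroxylates collagen chains in the endoplasmic reticulum, measured 9.84, 13.5, 9.36 and 15.03 FPKM and 86.2, 78.4, 78.7 and 79.1 FPKM, a log2 change of 2.68 (SE 0.17, limma adjusted p = 4.9e-09). Of 59 laminins, proteoglycans and matrix glycoproteins 15 rose and 25 fell. The small proteoglycans parted: Bgn (biglycan) measured 111, 82.5, 105 and 76.9 FPKM and 413, 447, 477 and 439.8 FPKM, a log2 change of 2.25 (SE 0.11, limma adjusted p = 8.6e-10), and Dcn (decorin) measured 589, 582, 624 and 498 FPKM and 319, 249, 321 and 273 FPKM, a log2 change of -0.98 (SE 0.08, limma adjusted p = 1.1e-07). Dcn and Col1a1 are both stromal markers here, and Col1a1 rose (0.81). Vcan, a large proteoglycan, changed by 1.87. Of 53 matrix proteases and inhibitors 15 rose and 13 fell, with Adamts15 at 4.36, 6.88, 3.92 and 5.72 FPKM and 44.3, 31.2, 42.7 and 35.4 FPKM, Adamts9 at 3.36, 5.73, 2.90 and 5.92 FPKM and 23.8, 27.9, 32.7 and 28.6 FPKM, and Mmp10 at 16.6, 13.001, 14.7 and 11.9 FPKM and 0.745, 0.798, 0.648 and 0.596 FPKM. The hyaluronan-degrading protein Cemip fell (-1.85) from oil values of 9.05, 24.9, 7.43 and 31.1 FPKM, in which replicates 2 and 4 were the high ones.

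Epithelial genes did not move as a block. Of 49 junction and keratin genes 13 rose and 20 fell. Cldn2, the claudin of a cation-permeable junction, measured 0.340, 0.805, 0.540 and 0.872 FPKM in oil and 9.80, 14.1, 19.3 and 15.7 FPKM in P4, a log2 change of 3.24 (SE 0.51, limma adjusted p = 4.6e-05). Cldn3 measured 159, 139.9, 186 and 149.6 FPKM and 405, 397, 352 and 363 FPKM, a log2 change of 1.26 (SE 0.10, limma adjusted p = 6.1e-08), whereas Cldn24 fell (-1.43). Of 58 genes of ion and water transport 15 rose and 23 fell. Atp1b1, of the sodium pump, measured 36.4, 40.7, 37.5 and 46.3 FPKM and 187, 166, 144 and 153 FPKM, a log2 change of 1.99 (SE 0.13, limma adjusted p = 5.4e-09), and its regulator Fxyd4 changed by 1.71. Clca3, a goblet cell type secreted protein, measured 133, 45.3, 161 and 26.8 FPKM and 19.2, 16.1, 10.8 and 16.5 FPKM, a log2 change of -2.15 (SE 0.52, limma adjusted p = 0.0019), the oil replicates spreading once more into the pairs 1 and 3 (high) and 2 and 4. Without replicates 1 and 3 the change of Clca3 was -1.14 and not called (limma adjusted p = 0.05).

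Muscle and vessel genes were split. Of 40 genes of smooth muscle contraction 13 rose and 11 fell. Ednrb, an endothelin receptor, measured 5.70, 3.33, 4.57 and 3.67 FPKM in oil and 11.8, 10.3, 12.1 and 9.42 FPKM in P4, a log2 change of 1.18 (SE 0.31, limma adjusted p = 0.0032), and Avpr1a, the vasopressin receptor, and Pln, which restrains calcium uptake, fell (-1.03 and -1.09). Pln was not called without oil replicates 1 and 3 (-0.86). Of 50 angiogenic and endothelial genes 15 rose and 14 fell. Pgf, placental growth factor, measured 4.14, 5.14, 5.27 and 4.66 FPKM and 22.2, 13.6, 19.3 and 14.8 FPKM, a log2 change of 1.65 (SE 0.12, limma adjusted p = 2.6e-08), and Hif1a changed by 1.38. The decreases in this list included the endothelial genes Sox7 and Cldn5. The summed endothelial markers were lower in every P4 library, but Cldn5 is part of that sum (118 ± 17.8 FPKM in oil, 45.2 ± 5.44 FPKM in P4). Of its other members Tie1 and Pecam1 fell (-0.35 and -0.34). Cdh5, Emcn and Kdr were not called (-0.10, -0.10 and -0.07), and the part of cell number was not tested.

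Immune genes mostly fell or did not pass the test. Of 52 interferon-stimulated genes and GTPases 2 rose and 26 fell (median -0.45). Ifit3 measured 21.1, 17.8, 19.2 and 22.6 FPKM in oil and 6.17, 5.98, 6.51 and 6.67 FPKM in P4, a log2 change of -1.53 (SE 0.20, limma adjusted p = 8e-06). Gbp3 and Gbp5 changed by -1.22 and -1.32, and Isg20 was an increase (2.11). Of 31 genes of complement and coagulation 3 rose and 15 fell (median -0.39), with F3 (tissue factor) at 147, 113, 164 and 79.8 FPKM and 31.8, 37.8, 34.5 and 41.2 FPKM, a log2 change of -1.72 (SE 0.19, limma adjusted p = 1.1e-06), and its downstream thrombin receptor F2r up (2.03). Of 36 chemokines and receptors 8 rose and 8 fell. Cxcr4 measured 39.2, 51.02, 35.6 and 46.1 FPKM and 7.19, 5.25, 6.51 and 7.05 FPKM, a log2 change of -2.55 (SE 0.14, limma adjusted p = 1.4e-09), and Ccl28 and Ccl12 rose (1.63 and 1.90). Of 40 MHC class II, macrophage and dendritic genes 2 rose and 6 fell, with Cd83 at 25.4, 40.2, 27.1 and 32.6 FPKM and 7.53, 8.62, 10.5 and 9.78 FPKM. With 1 PRA library left out the decreases numbered 3 (without oil replicate 1, oil replicate 3, P4 replicate 2 or P4 replicate 4) to 13 (without oil replicate 2). The summed leukocyte markers did not separate the groups, at 44.7 to 62.6 FPKM in oil and 50.5 to 59.3 FPKM in P4. Of the 8 markers in that sum 1 was called higher, from a mean of 0.603 to 3.21 FPKM (1.40 on the log2 scale). Another 1 was called lower, from 8.99 to 5.38 FPKM (-0.61).

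Measured in FPKM rather than in fold, the greatest gains after Hsd11b2 and Ctsd were those of Rpl41, Hspa8, Hspa5, Actg1, Rpl36al, Tmsb4x, Hnrnpa2b1 and Bgn. Hspa8, the constitutive HSP70, measured 209, 262, 254 and 287 FPKM in oil and 729, 771, 692 and 781 FPKM in P4. Actg1, cytoplasmic actin, measured 401, 449, 384 and 428 FPKM and 859.7, 883, 762 and 824 FPKM. Tmsb4x, which sequesters actin monomers, measured 567, 719, 667 and 690.4 FPKM and 1012, 1044, 937 and 1084 FPKM. The greatest losses were those of Ifitm1, Dcn, Ip6k1, Inmt, Rnase4, Txnip, Igfbp3, Ypel3, Cox7a2l and Sparcl1. Ifitm1 measured 537, 589, 639 and 551 FPKM and 333, 251, 257 and 264 FPKM, a log2 change of -1.07 (SE 0.08, limma adjusted p = 4.3e-08). Txnip, which restrains glucose uptake, measured 396, 377, 448 and 304 FPKM and 180.4, 250.4, 199 and 207 FPKM, a log2 change of -0.86 (SE 0.13, limma adjusted p = 4.3e-05). Ypel3 measured 176, 177, 188 and 154 FPKM and 30.4, 21.5, 22.01 and 21.6 FPKM, a log2 change of -2.82 (SE 0.10, limma adjusted p = 8.6e-11). On the log2 scale the other losses ran from -0.62 (Sparcl1) to -1.67 (Igfbp3), and the groups did not overlap in any of the 10. Under quantile normalization the increases of Rpl41 and Hnrnpa2b1, 0.36 and 0.53 here, were 0.10 and 0.08 and not called.

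Another 3 increases of at least 3 on the log2 scale were picked after their values were seen. Hdc, which makes histamine, rose from 19.7 ± 12.3 to 218 ± 45.02 FPKM, Aldh1a2, which makes retinoic acid, from 19.02 ± 5.31 to 157 ± 20.6 FPKM, and Calb1, a calcium-binding protein of uterine epithelium, from 18.1 ± 12.99 to 139.5 ± 18.3 FPKM (mean ± SD, n = 4). Their log2 changes were 3.59, 3.02 and 3.13.

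The response of PRA uteri differed from that of PRB uteri at few features. The difference of the P4 responses was called in 352 of 15408 features, which is 2.28%, and in 12 of the 284 genes named by rule. That count rests on the oil libraries of PRA: it was 85 without oil replicates 1 and 3, 937 without oil replicates 2 and 4, and 155 to 477 with 1 PRA library left out. Without oil replicates 1 and 3, 5 of the 12 named differences were called (Scube2, Areg, Fkbp5, Il13ra2 and Adamts15), and all 12 kept their sign. Scube2, Areg, Fkbp5, Slc6a14 and Adamts15 were called in all 8 fits without 1 PRA library. Ccdc28a, Foxo4 and Npas2 were lost in 6 of those fits, Nppc in 4, Ypel3 in 3, Il13ra2 in 2 and Stc1 in 1. With a pseudocount of 0.1 the differences of Il13ra2 (0.62, adjusted p = 0.64) and Nppc (-2.39, adjusted p = 0.067) were not called, nor those of Ccdc28a (0.39) and Foxo4 (0.48) with one of 5. With the bioreplicate number as a block those of Adamts15 (adjusted p = 0.064) and Il13ra2 (adjusted p = 0.08) were not called. Scube2 had the largest such difference among them: it rose by 1.36 in PRA and by 3.62 in PRB, a difference of 2.26 (SE 0.25, limma adjusted p = 0.00045). In FPKM, Scube2 measured 5.17, 3.63, 4.64 and 3.36 in oil and 13.2, 14.7, 10.3 and 10.98 in P4 in PRA, and 3.95, 4.58, 3.43 and 2.74 and 75.4, 54.1, 40.9 and 57.7 in PRB. Areg rose by 2.50 and 4.50, with 5.38, 5.81, 6.17 and 3.05 FPKM in the P4 libraries of PRA and 16.4, 34.7, 15.7 and 29.03 FPKM in those of PRB (difference 2.00, adjusted p = 0.0053). Smaller increases in PRA than in PRB were also called for Slc6a14 (3.72 against 5.05), Fkbp5 (3.68 against 4.96), Il13ra2 (4.04 against 5.24), Adamts15 (2.68 against 3.84) and Npas2 (1.91 against 3.00). The transgenes' own levels and isoforms were not separated in the table, so isoform and amount of receptor cannot be told apart.

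Nppc, the C-type natriuretic peptide, went the other way. It measured 0.338, 1.46, 0.711 and 1.04 FPKM in oil and 4.31, 4.91, 2.98 and 4.25 FPKM in P4 in PRA, and 1.85, 0.826, 0.715 and 0.626 FPKM and 1.43, 0.911, 0.306 and 0.974 FPKM in PRB, a difference of -1.53 (SE 0.33, limma adjusted p = 0.027). Decreases that were larger in PRA than in PRB were called for Ypel3, Ccdc28a and Foxo4, with differences of 0.72, 0.65 and 0.59, and a smaller decrease for Stc1 (-1.74 against -2.82). Among the lists, DNA replication held 10 called differences among 53 members, 18.9% beside 2.28% of all features, with a median change of 0.73 in PRA and -0.18 in PRB. Its summed FPKM in PRB was 624, 547, 681 and 765 in oil and 657, 647, 525 and 715 in P4. E2f1 and Uhrf1 rose by 1.77 and 2.09 in PRA beside -0.27 and -0.30 in PRB, but their differences were not called (adjusted p = 0.062 and 0.09). With all libraries 45 of the 53 members differed at an unadjusted p under 0.05 by limma, and 44 to 50 with 1 PRA library left out. Without oil replicates 1 and 3 the list held 0 called differences by limma, with 32 at an unadjusted p under 0.05. Without oil replicates 2 and 4 it held 43 called, with 50 unadjusted. The unadjusted share of all features is not given here. Leaving out 1 library gave 1 or 2 called differences without oil replicate 1, oil replicate 3, P4 replicate 2 or P4 replicate 4, 17 without P4 replicate 1 and 30 without oil replicate 4. Mitosis genes had a median of 0.53 in PRA and -0.31 in PRB.

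**Figure D5:**
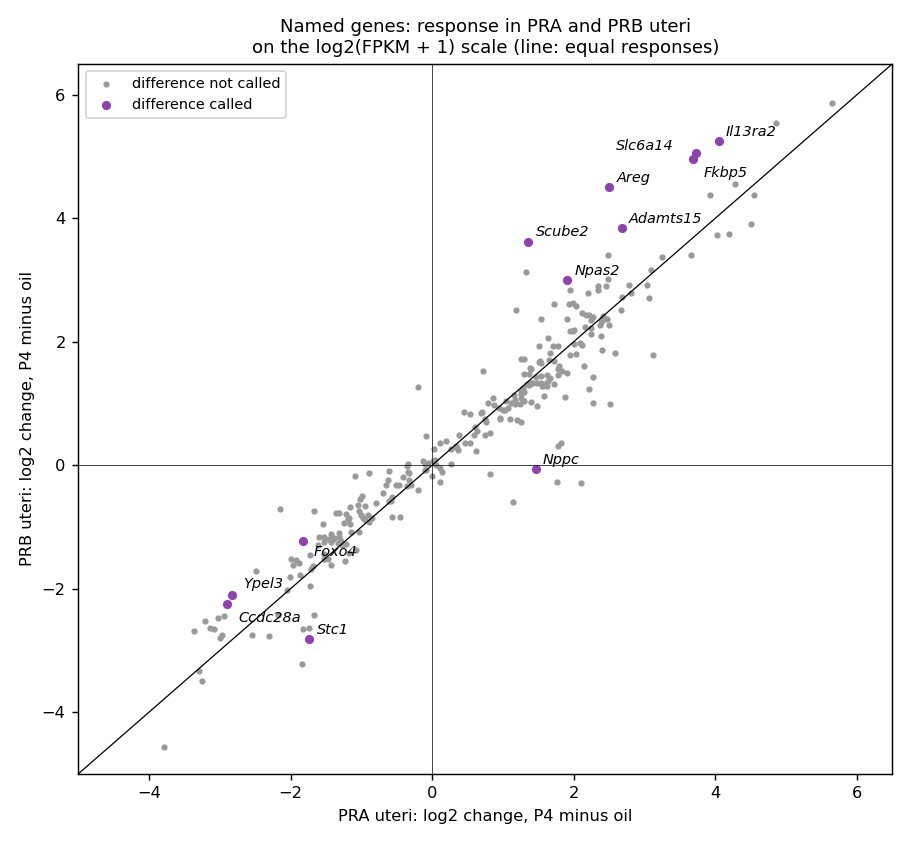
Log2 change with P4 in PRB uteri against that in PRA uteri for the named genes, with a line at equal responses. The 12 genes with a called difference are purple and named, and most of the others, grey, lie near the line, from Gabrp at -3.78 and -4.56 to Hsd11b2 at 5.65 and 5.86.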

How the data were processed

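RNA of whole mouse uterus was measured by RNA-seq in 16 libraries, 4 in each of 4 groups. The authors deposited 1 table of FPKM per feature, which holds no read counts. The submitters' processing notes name TopHat2 2.0.4, Cufflinks 2.0.2, Cuffdiff and the build mm10. What annotation, strand setting and scaling between libraries were used is not given in the sources used here. Depth was estimated from the spacing of the lowest FPKM of features with a single transcript, with an assumed fragment length of 210 bases, as 67.1 M to 73.8 M fragments per PRA library.

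Features whose FPKM averaged 1 or more in the whole table entered the tests, and log2(FPKM + 1) values were fitted with limma 3.58.1 (R 4.3.3) in 1 model of 4 groups with 12 residual degrees of freedom, an intensity trend and Benjamini-Hochberg adjustment over all 15408 features. A feature was called at an adjusted p under 0.05. Fold changes are on that log2 scale, which understates the change of low genes. The limma step was also run on simulated data with independent noise and known changes in a small part of the features. That setting differs from these data, in which most features were called. The labels say bioreplicate and no more, so p-values measure the spread between these samples. Genes are named by a rule: the 12 largest increases and decreases without overlap between groups, the 10 largest gains and losses in FPKM, up to 4 called members without overlap of each of 55 gene lists (or the 2 most expressed members), Pgr and the markers. A few genes that this rule gives are not reported here. Riken clones, numbered gene models and small RNAs are not named by it, and other genes are said to be picked after their values were seen. The members and lists were chosen with earlier results of these data known. Promoter sequences are RefSeq's for GRCm38.p6, matched by symbol. Alternatives were pseudocounts of 0.1 and 5, no filter or a filter at 5 FPKM, median-ratio scaling, quantile normalization, the PRA libraries alone, no intensity trend, a replicate block, no small RNA features, and leaving out PRB P4 replicate 3 or each PRA library. Leaving out pairs of oil libraries was added after the data were seen.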

Additional observations from a re-analysis of the deposited data

Results flagged for a closer look

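Among the 248 genes named, 18 of 496 groups of 4 libraries held 1 library far from the other 3, where chance alone gives about 1 group in 20. P4 replicate 1 of PRA was that library in 10 of them. It was low for Asns (37.9 FPKM against 57.0 to 60.9), Mars (39.3 against 51.4 to 53.5), Phgdh (50.5 against 85.9 to 90.9), Nupr1 (37.4 against 53.1 to 54.2) and Nr2f2 (68.1 against 76.2 to 77.1). It was high for Ifitm1 (333 FPKM against 251 to 264), P4ha2 (86.2 against 78.4 to 79.1), Sox7 (8.07 against 4.32 to 4.93), Fgf18 (4.65 against 3.22 to 3.33) and Ypel3 (30.4 against 21.5 to 22.0). P4 replicate 3 stood apart for Fgf10 (23.1 against 17.98 to 18.5), Fstl3 (56.7 against 41.2 to 43.6) and Sparcl1 (239 against 280.3 to 286), and P4 replicate 4 for Mki67 (10.8 against 6.71 to 7.14). Among the oil libraries replicate 1 stood apart for Atf3 (23.03 FPKM against 2.85 to 3.90) and Errfi1 (37.4 against 28.5 to 29.1), and replicate 2 for Il17rd (13.2 against 12.1 to 12.2) and Ypel4 (29.5 against 23.1 to 23.9).

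The response of PRB minus that of PRA, on the log2 scale, was called by limma with Benjamini-Hochberg adjustment in 14 named genes. It was above 0 for Scube2 (2.26), Cyp26a1 (2.13), Areg (2.00), Slc6a14 (1.33), Fkbp5 (1.27), Il13ra2 (1.20), Adamts15 (1.16), Npas2 (1.09), Pdk4 (0.96), Ypel3 (0.72), Ccdc28a (0.65) and Foxo4 (0.59). It was below 0 for Nppc (-1.53) and Stc1 (-1.08). Cyp26a1 and Pdk4 were picked after their values were seen. The adjusted p of Cyp26a1 was 0.025 and that of Pdk4 was 0.046. Pdk4 was not called in 7 of the 8 fits without 1 PRA library, and Cyp26a1 was not called in the fits without oil replicate 1, oil replicate 3 or P4 replicate 4.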

How the results depend on the processing

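The split into higher and lower features (5646 and 5114) stayed within 1.5 times of these counts in all alternatives run. With 1 library left out, 5377 to 5830 features were higher and 4820 to 5291 lower, 974 to 1183 rose and 1048 to 1247 fell by at least 1 on the log2 scale, and 155 to 508 differences between the strains were called, the highest of these without PRB P4 replicate 3. A pseudocount of 5 gave 619 increases and 438 decreases of at least 1, since it compresses low values, and the direction of no named gene changed with the pseudocount. The size did: of 236 called responses of named genes, 11 moved by over 1.5 times with a pseudocount of 0.1 and 53 with one of 5, Areg from 2.50 to 5.03 and 0.99 and Il6 from 1.72 to 4.08 and 0.57, and all stayed called. Of the named differences between strains, those of Il13ra2 (0.62) and Nppc (-2.39) were not called with a pseudocount of 0.1, nor those of Ccdc28a (0.39), Foxo4 (0.48) and Pdk4 (0.53) with one of 5. The differences numbered 85 without oil replicates 1 and 3 and 937 without oil replicates 2 and 4, an alternative added after the data were seen, and the cause was not tested. Of 248 named genes 30 changed their call or sign of response in at least 1 alternative. All values that changed sign belonged to genes not called in PRA. Under quantile normalization Pgr was at -0.054, Tsc22d3 at -0.0085 and Bmp2 at 0.17, and Nr2f2 was called at -0.26. Bmp2, at -0.0019 with all libraries, lay between -0.11 (without oil replicate 4) and 0.050 and was above 0 in the 5 fits without 1 library that turned its sign (without oil replicate 1, 0.032; oil replicate 2, 0.050; oil replicate 3, 0.017; P4 replicate 3, 0.0046; P4 replicate 4, 0.012). With 1 library left out, Nr2f2 ran from -0.050 (without oil replicate 4) to 0.0083 (oil replicate 2) and 0.022 (P4 replicate 1), and Pck2 from -0.11 (P4 replicate 2) to 0.035 (P4 replicate 1). Without oil replicates 1 and 3 Bmp2 was at 0.077, Klf9 at 0.093, Per1 at 0.13 and Mki67 at -0.22, and without oil replicates 2 and 4 Ptch1 was at 0.12. Without oil replicates 2 and 4 Klf9 (-0.50) and Mki67 (1.82) were called, and without oil replicates 1 and 3 Ptch1 (-0.59) and Tsc22d3 (0.55). Counts of at most 3 members lower moved by over 1.5 times with 1 library left out for ATF4-type, DNA replication, cytosolic chaperone, hedgehog, mitosis, immediate early and mitochondrial import genes. With the bioreplicate number as a replicate block within strain, 5618 features were higher, 5047 lower and 284 differed between strains, DNA replication held 22 differences in place of 10, and the named differences of Adamts15, Il13ra2 and Pdk4 (adjusted p = 0.064, 0.08 and 0.11) were not called. Deviations of same-numbered oil and P4 libraries correlated at 0.11, 0.023, -0.066 and 0.13, and those of differently numbered ones at -0.17 to 0.17. These values cannot tell whether the numbers pair the samples, and the labels do not say. The values hold no counts, and genes near 0 FPKM in 1 group, such as Areg, Il6 and Il13ra2 in oil, passed the filter, so the size of their change rests on the pseudocount.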
